A study of Mus musculus with 37 samples.

Results

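The 44 genes described here encode the machinery that copies DNA in S phase: the loading and activation of the replicative helicase, the polymerases and their clamp, the joining of new strands, the supply of deoxynucleotides and the rebuilding of chromatin. They were listed by name for their role in replication, with earlier results of these data known, and all 44 were found among the 55487 genes of the deposited table and passed the filter on low counts, which left 15564 genes for testing. The libraries came from livers of wild-type mice (WT) and of mice labelled NOX4-/- (KO), the deleted gene being that of NADPH oxidase 4, an enzyme that produces hydrogen peroxide. Each animal had been given either a partial hepatectomy, in which surgeons take out liver lobes, or a sham operation, and the series title frames the comparison as one of the speed of regeneration. WT livers numbered 5 sham, 3 at 6 h, 3 at 24 h, 4 at 48 h and 3 at 7 d after hepatectomy, and KO livers numbered 5 sham, 3 at 6 h, 4 at 24 h, 4 at 48 h and 3 at 7 d. The sham livers of a genotype formed 1 group although they were taken at different times after the operation. In the WT, replicate 1 was taken at 7 d, replicates 2 and 4 at 48 h, replicate 3 at 24 h and replicate 5 at 6 h. In the KO, replicate 1 was taken at 24 h, replicates 2 and 3 at 48 h, replicate 4 at 72 h and replicate 5 at 6 h. Only males were sampled at 6 h, whereas each of the remaining groups mixed males and females. The labels give neither the strain, the age, the design of the deletion nor its spread over tissues. They also do not say whether libraries of a group came from separate animals, so p-values measure the spread between these libraries. In the main fit that spread was estimated for each gene from all 37 libraries, not from the compared groups alone.

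Replication origins are licensed in G1, when the origin recognition complex, Cdc6 and Cdt1 load the Mcm2 to Mcm7 ring onto DNA and geminin (Gmnn) later blocks a second loading. At the start of S phase Cdc45 and the GINS complex join the ring to form the active helicase, primase and DNA polymerase alpha begin each strand, and polymerases delta and epsilon extend it on the sliding clamp Pcna. Adult hepatocytes are mostly quiescent, and after partial hepatectomy they re-enter the cell cycle, so that in the mouse a wave of DNA synthesis follows within the first days. Many of these genes are textbook targets of E2F transcription factors.

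Total counts per library ranged from 26232544 to 48827025, and TMM scaling factors, which correct the library size for composition, from 0.658 to 1.37. Levels below are CPM, the counts relative to the TMM-scaled library size. Nox4 itself stood at 0.778 to 3.36 CPM in the 7 WT females and at 0 to 0.245 CPM in the 7 KO females. In males it stood at 3.95 to 23.5 CPM in the 11 WT and 0.325 to 4.98 CPM in the 12 KO livers, so the male ranges overlapped. A count per gene does not show which part of the gene the remaining KO reads came from. Albumin (Alb), the main hepatocyte secretory protein, stood at 24280 CPM or more in every library, so the labelled tissue carried its defining marker. In whole-liver RNA, fewer cells of a type and less RNA per cell cannot be told apart.

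The mean of log2(CPM + 1) over the 44 genes gave each liver 1 score. It was 2.33 ± 0.28 (SD, n = 5) in WT sham livers and 2.10 ± 0.15 (SD, n = 5) in KO sham livers. At 6 h it stood at 1.73 ± 0.08 (SD, n = 3) in WT and 1.70 ± 0.07 (SD, n = 3) in KO livers, below every sham liver. At 24 h the WT livers scored 2.32, 3.66 and 2.15, and the KO livers 2.58, 1.98, 1.87 and 2.01. The 48 h scores were 3.26, 3.02, 2.05 and 4.04 in WT livers, and 4.20, 3.69, 3.67 and 3.26 in KO livers. At 7 d they were 2.23, 2.61 and 2.12 in WT and 2.69, 2.61 and 2.55 in KO livers. All 4 KO livers at 48 h thus lay above every sham liver of both genotypes, whereas 3 of the 4 WT livers at 48 h did.

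**Figure D1:**
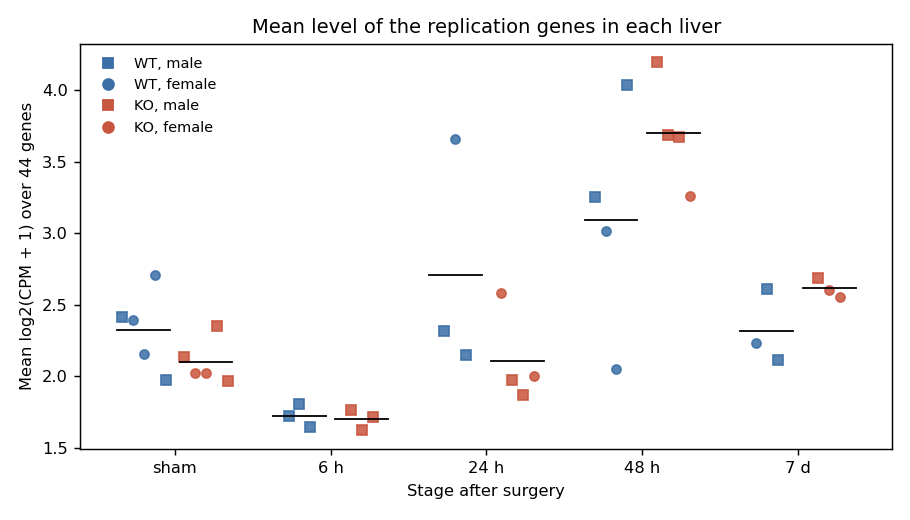
Mean log2(CPM + 1) over the 44 replication genes (vertical axis) in each liver, by stage (horizontal axis), with WT in blue, KO in red, squares for males, circles for females and a black line at the mean of each group. The KO livers at 48 h lie between 3.26 and 4.20, above all sham livers, while WT replicate 2 at 24 h (3.66) and WT replicate 3 at 48 h (2.05) stand apart from their groups.

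A pair of WT libraries and 1 KO library stood apart and bear on several results. WT replicate 2 at 24 h, the only female of its group, had 38 of the 44 genes above the highest WT sham liver, against 3 and 4 in replicates 1 and 3. For all genes tested those shares were 15.6%, 16.7% and 29.2%. WT replicate 3 at 48 h had 3 genes above the highest sham liver, against 30, 33 and 41 in replicates 1, 2 and 4. For all genes the shares were 27.0% in replicate 3 and 19.9%, 24.9% and 22.5% in the others. Among KO livers at 24 h, replicate 1 had 28 genes above the highest KO sham liver, against 14, 11 and 14 in the other three. The shares over all genes were 17.6%, 30.0%, 29.4% and 30.1%, so only in replicate 1 did the count stand well above its share. In KO livers at 48 h the count was 42, 41, 39 and 40, with shares over all genes of 17.0%, 17.1%, 19.5% and 21%. Several results that rest on these libraries are given with and without them.

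**Figure D2:**
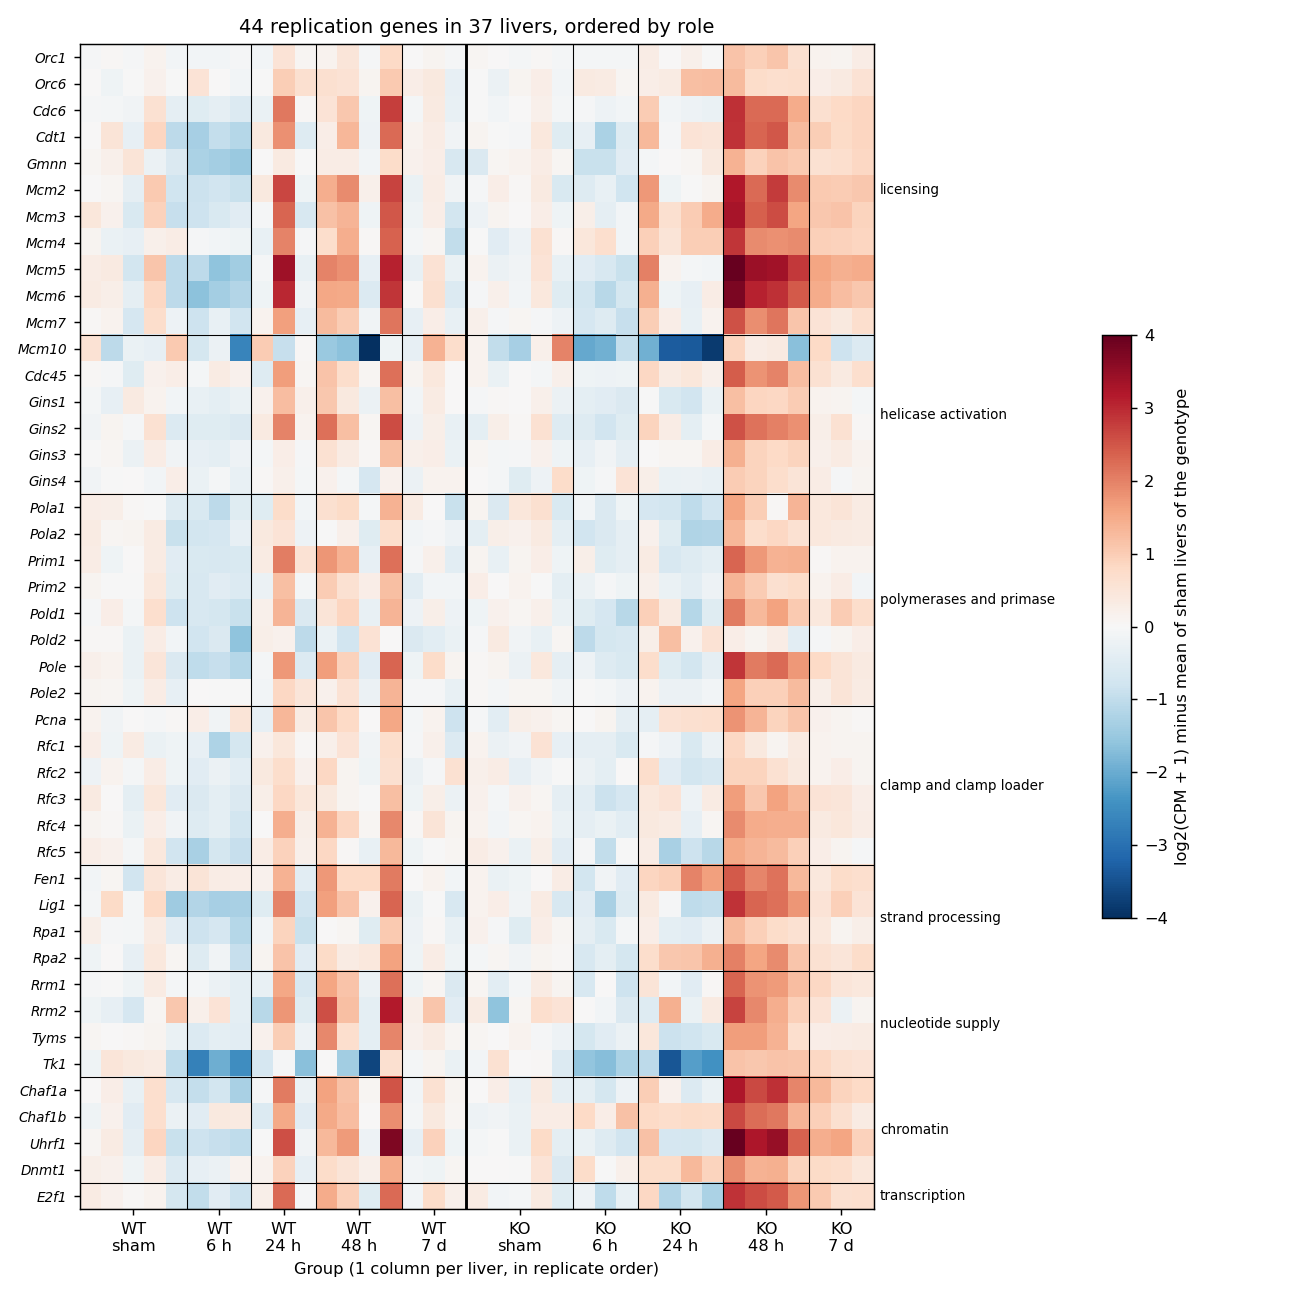
Each row is 1 gene and each column 1 liver, coloured by log2(CPM + 1) minus the mean of the sham livers of the same genotype. Colours saturate at 4 in either direction, thin lines separate groups and roles, and the thick line separates WT from KO. Most rows are red in all 4 KO livers at 48 h, in WT replicate 2 at 24 h and in WT replicate 4 at 48 h, while Mcm10 and Tk1 are blue in most KO livers at 24 h.

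Between genes, levels were compared in sham livers per kilobase of exon. Over the 10 sham livers the highest were Gins4 (7.97 CPM per kb), Pcna (7.26), Mcm10 (5.91) and Pold2 (5.53), and the lowest Orc1 (0.0201), Cdc6 (0.0710), Pole2 (0.0915) and Pole (0.119). Among the lowest, Orc1 had only 11 counts summed over the 5 KO sham libraries.

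At 48 h after hepatectomy the replication genes were broadly higher than in sham livers in the KO. Of the 44 genes, 35 rose and 0 fell, against 2.30% of all genes tested called higher. The median log2 change was 2.06, against -0.01 over all genes. In 39 of the 44 genes every KO liver at 48 h lay above every KO sham liver, against 5.06% of all genes. In WT livers 21 genes rose and 0 fell (4.68% of all genes were called higher), with a median log2 change of 1.44 against 0.07. That median was 0.86 without WT 48 h replicate 4 and 1.70 without replicate 3. Among males alone the median was 2.07 in the WT and 2.06 in the KO, with 21 and 28 genes called higher. WT 48 h replicates 2 and 3 and KO 48 h replicate 4 came from females. The WT ranges separated in 1 gene, Fen1, against 4.63% of all genes. DESeq2 called 35 genes higher in the KO, and 25 higher and 1 lower in the WT. The KO count lay between 27 and 34 when each library was left out in turn, and 27 of the 35 genes passed in all 9 refits. The WT count ran from 4 without WT 48 h replicate 4 to 28 without replicate 3. It was 8, 10, 7 and 10 without WT sham replicates 1, 2, 3 and 5, and 12 and 13 without 48 h replicates 1 and 2. It was 0 when the WT 48 h and sham livers were fitted alone, and 10 without the 6 h sham livers. Gins2, Prim1, Rfc4 and Fen1 passed in all 9 WT refits. The WT calls of Pcna, Mcm5, Rrm2, Uhrf1 and Cdc6 were lost in 8, 7, 7, 6 and 5 of the 9.

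**Figure D3:**
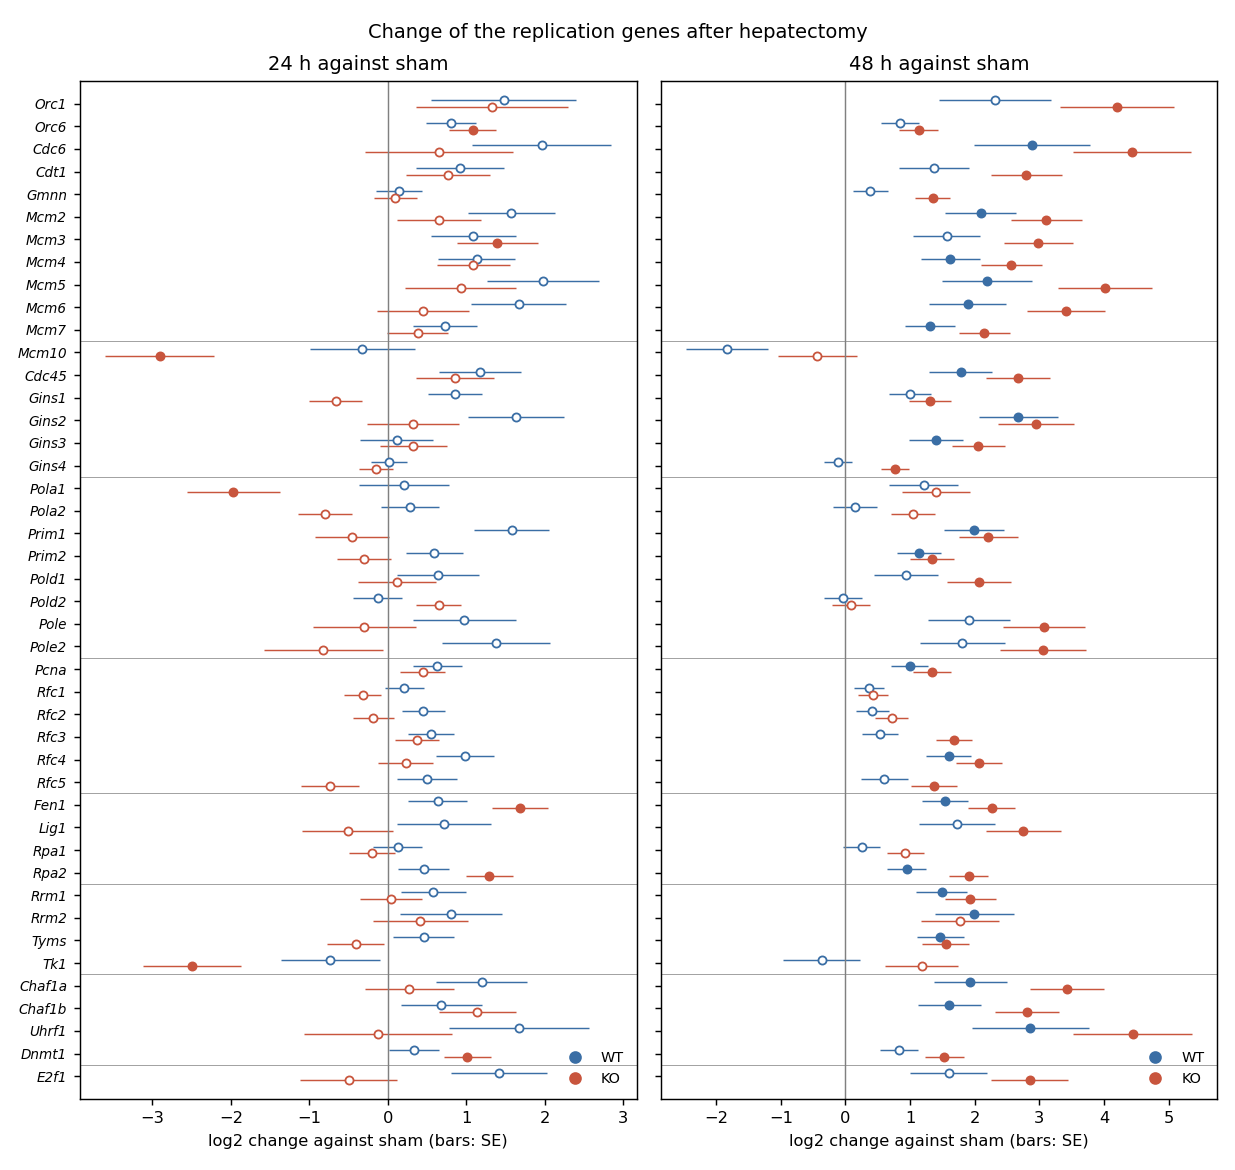
Log2 change against sham livers of the same genotype (horizontal axes, bars SE) of each gene at 24 h (left) and 48 h (right), WT in blue and KO in red. Filled points passed the test (adjusted p below 0.05) and grey lines separate roles. At 48 h all 11 licensing genes are filled in the KO and 6 in the WT, and at 24 h no WT point is filled.

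Among licensing factors all 11 rose in KO livers at 48 h, with a median log2 change of 2.98, and 6 of 11 in WT livers, with a median of 1.62. Mcm5, a subunit of the helicase ring (ENSMUSG00000005410, GRCm38 chr8:75109569-75128439, plus strand), stood at 2.28, 1.50, 1.67, 3.28 and 1.39 CPM in KO sham livers and at 48.3, 30.6, 29.1 and 19.8 CPM at 48 h. In WT livers it stood at 5.28, 5.65, 2.12, 10.2 and 1.49 CPM after sham surgery and at 19.3, 17.2, 3.09 and 42.6 CPM at 48 h. The KO groups were widely separated (log2 4.01, SE 0.72, adjusted p = 0.00191), while WT replicate 3 at 48 h lay within the sham range (log2 2.19, SE 0.70, adjusted p = 0.0469). Mcm2, another subunit of the ring, stood at 2.39, 3.19, 2.62, 3.46 and 1.32 CPM in KO sham and 31.1, 15.9, 23.5 and 12.1 CPM in KO 48 h livers. Its WT values were 3.67, 3.80, 2.59, 8.52 and 1.66 CPM in sham and 11.5, 16.1, 4.30 and 29.0 CPM in 48 h livers, and again only replicate 3 fell inside the sham range. The remaining ring subunits Mcm3, Mcm4, Mcm6 and Mcm7 rose in the KO by log2 changes of 2.98, 2.57, 3.41 and 2.15. In WT livers Mcm4, Mcm6 and Mcm7 rose by 1.62, 1.89 and 1.30, and Mcm3 had a log2 change of 1.57 that did not pass (adjusted p = 0.0561).

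Cdc6, the loader of the ring (ENSMUSG00000017499, GRCm38 chr11:98907801-98923940, plus strand), had the largest WT change. It stood at 0.419, 0.383, 0.311, 1.22 and 0.136 CPM in WT sham and 1.11, 2.08, 0.285 and 8.92 CPM in WT 48 h livers (log2 2.89, SE 0.89, adjusted p = 0.0396). In KO livers it stood at 0.242, 0.153, 0.249, 0.425 and 0.174 CPM after sham surgery and 8.38, 4.94, 5.03 and 2.51 CPM at 48 h (log2 4.43, SE 0.91, adjusted p = 0.00474). Every KO 48 h liver was therefore above the KO sham livers, whereas the WT ranges overlapped. Cdt1, the partner of Cdc6 in loading, stood at 2.58, 2.27, 2.19, 3.40 and 1.35 CPM in KO sham and 23.2, 15.7, 17.5 and 6.87 CPM in KO 48 h livers (log2 2.80, SE 0.55, adjusted p = 0.00327). Its WT levels were 3.45, 5.25, 2.49, 6.89 and 1.12 CPM in sham and 4.25, 10.01, 2.83 and 19.9 CPM in 48 h livers, and the log2 change of 1.37 did not pass (adjusted p = 0.114). Orc1, the largest subunit of the origin recognition complex, rose from 0.107, 0.0613, 0, 0.0966 and 0 CPM to 1.33, 1.02, 1.27 and 0.627 CPM in KO livers, that is from 11 counts in all to 147. WT livers held 0.0493, 0.128, 0.0518, 0.204 and 0 CPM of Orc1 after sham surgery and 0.196, 0.509, 0.0476 and 0.898 CPM at 48 h (adjusted p = 0.0949). Gmnn, which restrains relicensing, stood at 1.77, 3.40, 3.54, 4.12 and 3.37 CPM in KO sham and 9.85, 6.89, 8.12 and 7.52 CPM in KO 48 h livers (log2 1.35, SE 0.27, adjusted p = 0.00396). In WT livers Gmnn moved from 4.09, 4.61, 5.96, 3.09 and 2.27 CPM to 4.90, 4.90, 3.47 and 7.07 CPM and did not pass (log2 0.38, SE 0.27, adjusted p = 0.430).

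Helicase activation genes rose in 5 of 6 cases in the KO and 3 of 6 in the WT at 48 h. Cdc45, which completes the helicase, stood at 1.18, 0.644, 0.997, 0.869 and 1.25 CPM in KO sham and 9.53, 5.84, 6.85 and 3.65 CPM in KO 48 h livers (log2 2.66, SE 0.50, adjusted p = 0.00234). The WT values of Cdc45 were 1.13, 0.999, 0.467, 1.32 and 1.46 CPM and 3.49, 2.35, 1.17 and 8.37 CPM (log2 1.78, SE 0.49, adjusted p = 0.0214), with replicate 3 inside the sham range. Gins1, a GINS subunit, stood at 1.91, 2.12, 1.99, 2.43 and 1.56 CPM in KO sham and 5.86, 4.44, 4.34 and 4.99 CPM in KO 48 h livers (log2 1.30, SE 0.32, adjusted p = 0.0190). In WT livers it stood at 1.73, 1.32, 2.69, 2.17 and 1.70 CPM and 5.13, 2.82, 1.43 and 5.64 CPM, a change that did not pass (log2 0.997, SE 0.33, adjusted p = 0.0541). Gins2 rose in both genotypes, by log2 changes of 2.67 in the WT and 2.95 in the KO, but 67.3% of its exon bases are shared with Gse1 on the opposite strand, and the strand setting of the counting is not given in the sources used here.

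Mcm10, which helps to fire the helicase (ENSMUSG00000026669, GRCm38 chr2:4989714-5012791, minus strand), did not follow the other genes. It stood at 49.5, 15.4, 26.9, 25.5 and 69.2 CPM in WT sham and 11.1, 9.80, 0.499 and 29.0 CPM in WT 48 h livers, the lowest log2 change of the 44 genes (log2 -1.83, SE 0.64, adjusted p = 0.0704). KO levels of Mcm10 were 41.1, 18.2, 14.2, 42.7 and 152 CPM in sham and 68.6, 45.9, 48.0 and 11.0 CPM in 48 h livers (log2 -0.43, SE 0.61, adjusted p = 0.857). Its highest value in any library, 152 CPM, was that of the KO liver taken 6 h after sham surgery.

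Among the polymerases and primase, 5 of 8 genes rose in the KO and 2 of 8 in the WT at 48 h. Pole, the catalytic subunit of the leading-strand polymerase epsilon, stood at 1.13, 1.20, 0.748, 1.72 and 0.591 CPM in KO sham and 13.9, 7.61, 8.81 and 5.83 CPM in KO 48 h livers (log2 3.07, SE 0.64, adjusted p = 0.00488). For WT livers the values were 1.85, 1.72, 1.09, 2.51 and 0.678 CPM and 6.96, 3.68, 0.809 and 11.5 CPM, and the test missed the threshold (log2 1.91, SE 0.63, adjusted p = 0.0570). Pola1, the catalytic subunit of polymerase alpha, stood at 1.67, 0.644, 2.39, 2.82 and 0.625 CPM in KO sham and 6.35, 3.84, 1.55 and 5.31 CPM in KO 48 h livers, with overlapping ranges (log2 1.40, SE 0.53, adjusted p = 0.178). In WT livers Pola1 stood at 1.70, 1.64, 1.35, 1.25 and 0.577 CPM and 2.52, 2.86, 1.17 and 4.87 CPM (log2 1.21, SE 0.53, adjusted p = 0.164). The primase subunits Prim1 and Prim2 rose in both genotypes, Prim1 by 1.99 (WT) and 2.21 (KO) and Prim2 by 1.13 and 1.34 on the log2 scale. Pola2 (log2 1.04) and Pold2 (0.09) were the other polymerase genes that did not pass in the KO.

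Clamp and clamp loader genes changed less, with medians of 1.35 in the KO (4 of 6 rose) and 0.57 in the WT (2 of 6 rose). Pcna, the sliding clamp (ENSMUSG00000027342, GRCm38 chr2:132249162-132253314, minus strand), stood at 17.8, 13.5, 21.7, 20.6 and 19.4 CPM in KO sham and 66.6, 48.1, 34.6 and 41.0 CPM in KO 48 h livers (log2 1.34, SE 0.29, adjusted p = 0.00711). WT levels of Pcna were 17.8, 14.6, 16.5, 15.6 and 16.9 CPM and 36.0, 29.1, 16.6 and 49.6 CPM (log2 0.99, SE 0.29, adjusted p = 0.0306). The fold was smaller than for the Mcm genes, yet 3 of 4 WT livers lay above all WT sham livers. Rfc3, a subunit of the clamp loader, stood at 3.52, 2.79, 3.54, 3.28 and 2.15 CPM in KO sham and 11.9, 7.54, 11.2 and 8.94 CPM in KO 48 h livers (log2 1.67, SE 0.28, adjusted p = 0.00162). In WT livers it stood at 5.13, 3.91, 2.69, 5.57 and 2.51 CPM and 5.26, 4.23, 3.71 and 10.1 CPM and did not pass (log2 0.53, SE 0.28, adjusted p = 0.257). Rfc1, the large subunit, stood at 11.9, 8.89, 9.77, 16.5 and 8.30 CPM in KO sham and 19.7, 14.5, 11.6 and 14.2 CPM in KO 48 h livers, and passed in neither genotype (log2 0.43 in the KO and 0.37 in the WT). Rfc4 had the smallest p of the 44 genes in WT livers (log2 1.59, SE 0.35, adjusted p = 0.00490).

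Strand-processing genes included those with the smallest p in the KO. Fen1, the flap nuclease that trims Okazaki fragments (ENSMUSG00000024742, GRCm38 chr19:10199132-10204169, minus strand), stood at 3.89, 2.73, 2.94, 3.56 and 4.52 CPM in KO sham and 23.8, 16.4, 19.2 and 9.89 CPM in KO 48 h livers (log2 2.26, SE 0.36, adjusted p = 0.00113). Its WT values were 3.90, 4.53, 2.10, 6.41 and 5.43 CPM and 16.4, 8.11, 8.21 and 21.1 CPM (log2 1.54, SE 0.36, adjusted p = 0.00659). It was the single gene whose 4 WT livers at 48 h, replicate 3 included, all exceeded the sham livers, but 78.8% of its exon bases are shared with the antisense gene Gm10143. Rpa2, a subunit of the single-strand binding protein, rose by log2 changes of 1.90 in the KO and 0.95 in the WT. Lig1, the ligase that seals nicks, stood at 3.33, 3.71, 2.57, 3.92 and 1.49 CPM in KO sham and 28.1, 18.6, 17.1 and 12.2 CPM in KO 48 h livers (log2 2.75, SE 0.58, adjusted p = 0.00580). WT livers held 3.33, 6.87, 3.34, 7.02 and 0.712 CPM of Lig1 after sham surgery and 13.4, 9.21, 4.21 and 22.0 CPM at 48 h (log2 1.73, SE 0.59, adjusted p = 0.0633).

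Of the nucleotide supply genes, Rrm1 and Tyms rose in both genotypes. Rrm1, the large subunit of ribonucleotide reductase, stood at 6.69, 4.45, 5.81, 8.10 and 6.77 CPM in KO sham and 35.2, 24.1, 22.4 and 15.9 CPM in KO 48 h livers (log2 1.93, SE 0.39, adjusted p = 0.00414). In WT livers it stood at 8.06, 8.42, 7.28, 10.7 and 7.94 CPM and 27.3, 19.7, 7.04 and 42.1 CPM (log2 1.49, SE 0.39, adjusted p = 0.0155). Tyms, thymidylate synthase, stood at 5.93, 5.70, 6.31, 5.41 and 4.69 CPM in KO sham and 19.9, 20.1, 16.4 and 9.43 CPM in KO 48 h livers (log2 1.55, SE 0.36, adjusted p = 0.0125). The WT levels of Tyms were 5.89, 5.59, 5.75, 6.04 and 4.44 CPM and 23.6, 9.48, 4.00 and 24.4 CPM (log2 1.47, SE 0.37, adjusted p = 0.0108). Rrm2, the small reductase subunit, rose in the WT, from 4.41, 3.80, 2.85, 5.50 and 11.9 CPM to 35.6, 13.0, 3.66 and 54.4 CPM (log2 1.99, SE 0.62, adjusted p = 0.0396). WT replicate 3 lay inside the sham range, and the WT call was lost in 7 of 9 refits without 1 library. In KO livers every 48 h value of Rrm2 (46.4, 26.6, 18.8 and 13.0 CPM) exceeded every sham value (8.14, 1.38, 6.56, 10.4 and 9.48 CPM), but the change did not pass (log2 1.77, SE 0.60, adjusted p = 0.121). Tk1, thymidine kinase, likewise separated without passing, at 13.0, 21.8, 14.1, 14.5 and 9.17 CPM in KO sham and 32.2, 30.9, 31.8 and 31.2 CPM in KO 48 h livers (log2 1.18, SE 0.56, adjusted p = 0.356). In WT livers Tk1 stood at 19.3, 31.1, 28.9, 27.7 and 10.4 CPM after sham surgery and 22.5, 7.72, 0.809 and 34.7 CPM at 48 h (log2 -0.37, SE 0.59, adjusted p = 0.764).

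All 4 chromatin genes rose in the KO and 3 of 4 in the WT. Uhrf1, which guides maintenance methylation (ENSMUSG00000001228, GRCm38 chr17:56303321-56323486, plus strand), had the largest KO change, from 0.671, 0.736, 0.474, 2.01 and 0.347 CPM to 30.9, 15.5, 18.8 and 8.07 CPM (log2 4.44, SE 0.92, adjusted p = 0.00488). WT livers held 1.65, 2.15, 0.933, 3.53 and 0.339 CPM of Uhrf1 after sham surgery and 5.13, 7.13, 1.19 and 32.1 CPM at 48 h (log2 2.86, SE 0.91, adjusted p = 0.0453). Dnmt1, the maintenance methyltransferase, stood at 4.92, 4.88, 4.81, 7.59 and 2.88 CPM in KO sham and 20.7, 14.2, 14.5 and 9.78 CPM in KO 48 h livers (log2 1.53, SE 0.30, adjusted p = 0.00303). In WT livers it stood at 8.48, 7.97, 6.19, 8.96 and 4.51 CPM and 12.4, 10.4, 8.18 and 21.4 CPM (log2 0.83, SE 0.30, adjusted p = 0.0789). The chromatin assembly subunits Chaf1a and Chaf1b rose by 3.42 and 2.81 in the KO and by 1.93 and 1.61 in the WT on the log2 scale, with 52.5% of Chaf1a exon bases shared with Ubxn6 on the opposite strand. E2f1, the transcription factor of the set, stood at 3.38, 2.27, 2.32, 3.56 and 1.49 CPM in KO sham and 25.2, 20.5, 18.1 and 11.0 CPM in KO 48 h livers (log2 2.85, SE 0.60, adjusted p = 0.00586). Its WT values of 3.85, 3.34, 3.01, 3.26 and 1.39 CPM and 9.77, 6.54, 1.78 and 17.6 CPM overlapped and did not pass (log2 1.60, SE 0.60, adjusted p = 0.0930).

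**Figure D4:**
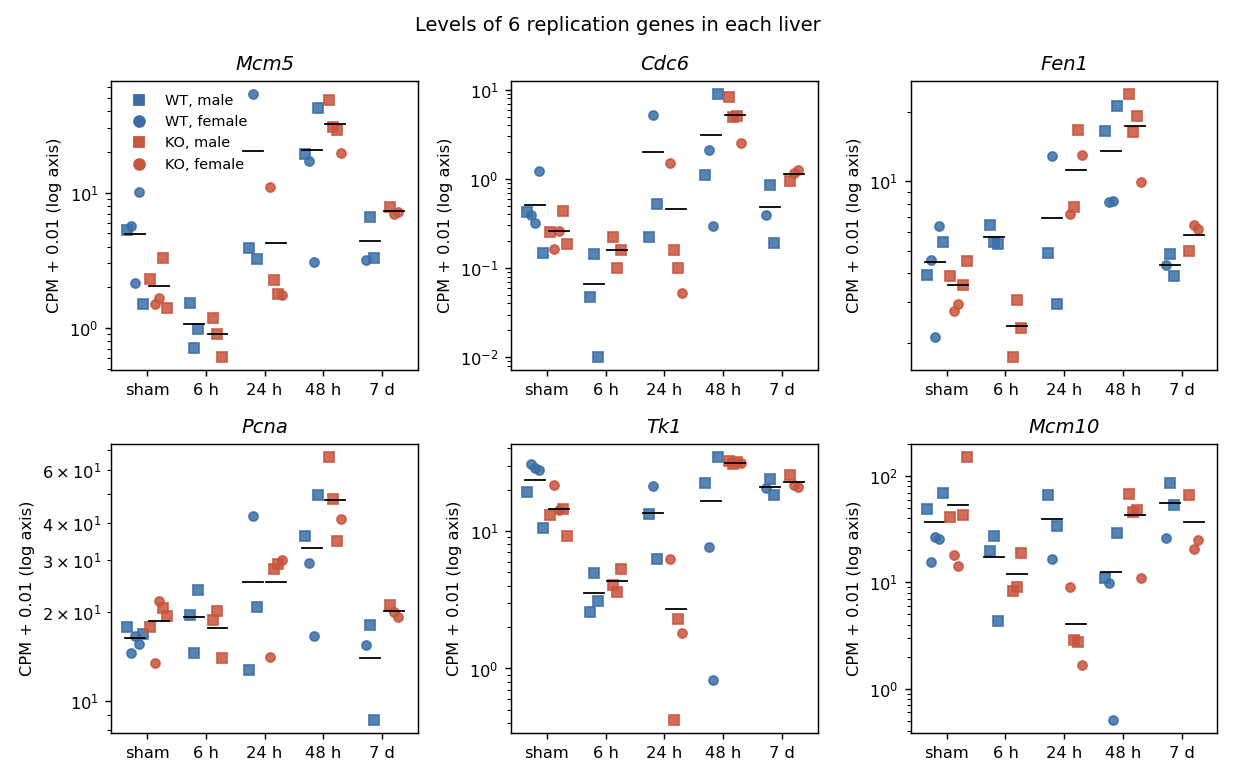
CPM + 0.01 on a log axis for 6 genes in each liver, by stage, with WT in blue, KO in red, squares for males, circles for females and a black line at the group mean. Mcm5, Cdc6, Fen1 and Pcna are high in the KO livers at 48 h and in WT replicate 2 at 24 h, while Tk1 and Mcm10 fall to their lowest KO levels at 24 h.

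Since many of the genes moved together at 48 h, their promoters were searched for short words. RefSeq windows on GRCm38.p6, from 250 bases before to 50 bases after each start, were found for 36 of the 44 genes, and 8 had none (Gmnn, Mcm4, Gins1, Gins2, Gins4, Prim2, Pole and Rfc2). The E2F words TTTCCCGC, TTTGGCGC, TTTCGCGC and TTTGCCGC, on either strand, occurred in 15 of the 36 genes (41.7%), against 2.6% of 27025 genes with a window. The word CCAAT occurred in 23 (63.9% against 41.1%), and TTTGAA or TTCGAA in 8 (22.2% against 21.7%). Mean GC content of the windows was 59.4% for the 36 genes and 53.6% for all. The stretches printed here show the words in Mcm5, Mcm6, Pola1 and Uhrf1 and, for contrast, bases upstream of Mcm10, whose window held no E2F word but 3 CCAAT words. The Uhrf1 stretch comes from the window of a second start, inside the annotated gene, while the window at its first start (chr17:56303087-56303386) held no E2F word. A gene was counted when any of its windows held a word. Capitals mark the E2F words on either strand, each sequence runs 5′ to 3′ along the gene's strand, and coordinates are GRCm38.
Mcm5, chr8:75109316-75109407, plus strand: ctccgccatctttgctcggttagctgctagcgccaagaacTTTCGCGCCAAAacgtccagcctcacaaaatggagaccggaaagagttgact
Mcm6, chr1:128359706-128359855, minus strand: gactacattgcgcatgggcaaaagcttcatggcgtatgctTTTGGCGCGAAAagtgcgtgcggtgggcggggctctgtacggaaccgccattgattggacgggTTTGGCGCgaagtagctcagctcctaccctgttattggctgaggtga
Pola1, chrX:93632246-93632333, minus strand: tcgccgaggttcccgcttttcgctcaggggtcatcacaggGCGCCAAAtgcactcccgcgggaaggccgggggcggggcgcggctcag
Uhrf1, chr17:56304088-56304175, plus strand: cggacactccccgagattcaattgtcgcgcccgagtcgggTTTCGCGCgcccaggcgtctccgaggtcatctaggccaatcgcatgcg
Mcm10, chr2:5012792-5012891, minus strand: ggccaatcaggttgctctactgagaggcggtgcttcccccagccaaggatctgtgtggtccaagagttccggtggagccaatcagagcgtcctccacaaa
In Mcm5 a pair of words on opposite strands overlap, and Mcm6 holds 3 words, of which a pair overlap. The 15 genes with an E2F word had a median log2 change of 2.80 in KO livers at 48 h (14 called) and the 21 without one 1.77 (14 called). In WT livers the medians were 1.57 (6 called) and 1.47 (12 called). These matches describe letters in the windows and are not measured binding sites.

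The 48 h and 24 h livers of a genotype were then compared directly, a contrast that uses no sham liver. In the KO 38 of 44 genes were higher at 48 h (12.2% of all genes) and 0 lower, with a median log2 difference of 1.87, and 36 had ranges that did not overlap (9.57%). Gins1 (log2 1.97, SE 0.36, adjusted p = 3.63e-04), Tk1 (log2 3.67, SE 0.68, adjusted p = 3.67e-04) and Pola1 (log2 3.37, SE 0.63, adjusted p = 3.97e-04) had the smallest p. Uhrf1 had the largest difference (log2 4.57, SE 1.07, adjusted p = 0.00255) and Pold2 the lowest (log2 -0.56, SE 0.31, adjusted p = 0.177). The 6 genes not called were Pold2, Orc6, Dnmt1, Fen1, Rpa2 and Rrm2. The count stayed between 30 and 38 in the 8 refits without 1 library. In the WT 0 genes passed (0.0450% of all genes did), 0 by DESeq2, and 4 had an unadjusted p below 0.05 (8.83% of all genes). Gins3 (log2 1.30, SE 0.48, adjusted p = 0.379), Tyms (log2 1.01, SE 0.42, adjusted p = 0.455) and Mcm10 (log2 -1.51, SE 0.68, adjusted p = 0.516) came closest. Without WT 24 h replicate 2 the WT median moved from 0.48 to 1.45 and 5 genes rose, namely Rrm2, Chaf1b, Rrm1, Fen1 and Cdc45. Without WT 48 h replicate 4 it was -0.05, and without WT 48 h replicate 3 it was 0.80. Among males alone 17 genes passed in the WT.

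At 24 h the KO livers were divided, with some genes above sham and others below. In the KO 5 genes rose (15.9% of all genes did) and 3 fell (12.0% of all genes did), so neither share stood above that of all genes. Fen1 stood at 7.17, 7.71, 16.6 and 13.0 CPM (log2 1.68, SE 0.36, adjusted p = 0.00104), Rpa2 at 7.00, 9.36, 9.63 and 12.2 CPM (log2 1.29, SE 0.30, adjusted p = 0.00219) and Dnmt1 at 8.72, 8.62, 13.4 and 9.70 CPM (log2 1.01, SE 0.29, adjusted p = 0.0110). All values of these 3 genes lay above the KO sham livers. Orc6 (log2 1.08, SE 0.30, adjusted p = 0.00795) and Mcm3 (log2 1.39, SE 0.52, adjusted p = 0.0417) were the other 2 that rose. Mcm10 fell to 9.07, 2.83, 2.75 and 1.67 CPM (log2 -2.91, SE 0.69, adjusted p = 0.00273), Tk1 to 6.26, 0.413, 2.26 and 1.80 CPM (log2 -2.50, SE 0.62, adjusted p = 0.00378) and Pola1 to 0.562, 0.472, 0.222 and 0.460 CPM (log2 -1.97, SE 0.59, adjusted p = 0.0138). These 3 ranges lay below the KO sham livers. The count of 8 became 14 without KO 24 h replicate 1, of which 9 fell, and 4 without replicate 3. Among males alone 2 genes rose and 9 fell, so the balance turned. The median log2 change of 0.25 became -0.34 among males and -0.18 without KO 24 h replicate 1, and ran from 0.13 to 0.41 without any other single library. Fen1, Rpa2, Mcm10 and Tk1 passed in all 9 refits.

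In WT livers at 24 h 0 genes passed (0.925% of all genes did) and 0 by DESeq2, although 13 had an unadjusted p below 0.05 (15.5% of all genes). The 3 with the smallest p were Prim1 (log2 1.58, SE 0.48, adjusted p = 0.101), Mcm2 (log2 1.58, SE 0.56, adjusted p = 0.162) and Mcm5 (log2 1.98, SE 0.71, adjusted p = 0.169), and Tk1 had the lowest change (log2 -0.73, SE 0.63, adjusted p = 0.619). The positive median of 0.70 rested on replicate 2. Without it the median was -0.27, and 13 genes in place of 41 had a positive change. Without replicate 1, 1 gene passed.

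The values by liver show this for each role. Among licensing genes, Mcm5 stood at 3.88, 53.5 and 3.21 CPM in WT and 11.1, 2.24, 1.78 and 1.76 CPM in KO livers at 24 h, and Mcm2 at 5.04, 28.5 and 3.10 CPM and 10.6, 2.13, 2.44 and 2.76 CPM. Cdc6 stood at 0.211, 5.22 and 0.509 CPM in WT and 1.51, 0.148, 0.0888 and 0.0418 CPM in KO livers. Cdt1 was measured at 4.75, 14.7 and 2.04 CPM in WT and 7.14, 2.21, 3.82 and 3.64 CPM in KO livers. In each of these 4 genes WT replicate 2 and KO replicate 1 were the highest of their groups. Both came from females, as did KO replicate 4, which held 1.76 CPM of Mcm5 and 0.0418 CPM of Cdc6. Whether sex had a part in these values was not tested. Orc1 stood at 0, 0.584 and 0.153 CPM in WT and 0.281, 0.0591, 0.222 and 0.0418 CPM in KO livers, and Gmnn at 3.88, 5.22 and 3.82 CPM and 2.95, 3.19, 3.42 and 4.43 CPM. For helicase activation, Cdc45 stood at 0.423, 5.47 and 1.15 CPM in WT and 2.50, 1.48, 1.73 and 1.25 CPM in KO livers. Mcm10 ran the other way in WT livers, where replicate 2 (67.1, 16.6 and 33.6 CPM in replicates 1 to 3) was the lowest. Pole stood at 1.35, 7.28 and 0.713 CPM in WT and 2.32, 0.443, 0.222 and 0.585 CPM in KO livers, and Lig1 at 2.27, 17.1 and 1.68 CPM and 4.01, 2.81, 0.932 and 1.00 CPM. Pcna stood at 12.7, 42.1 and 20.7 CPM in WT and 14.0, 27.8, 28.9 and 29.8 CPM in KO livers. In the KO the order was thus turned, and replicate 1 had the lowest Pcna while it had the highest Mcm5, Pole and Lig1. Rfc3 stood at 4.62, 7.45 and 5.55 CPM in WT and 4.36, 4.84, 2.49 and 4.06 CPM in KO livers, and Rfc1 at 12.7, 15.6 and 11.5 CPM and 10.5, 9.18, 6.70 and 8.91 CPM. Rrm1 stood at 6.60, 26.3 and 5.06 CPM in WT and 9.32, 5.76, 4.31 and 6.48 CPM in KO livers, and Rrm2 at 1.85, 19.8 and 3.38 CPM and 4.04, 18.4, 4.97 and 8.20 CPM. Rrm2 was highest in KO replicate 2, unlike its partner Rrm1, which was highest in replicate 1. Uhrf1 stood at 1.48, 13.9 and 1.25 CPM in WT and 2.99, 0.118, 0.0888 and 0.209 CPM in KO livers, and Tyms at 6.29, 11.9 and 4.68 CPM and 8.05, 2.66, 2.80 and 3.30 CPM. WT livers at 24 h held 4.89, 12.9 and 2.93 CPM of Fen1, 7.92, 14.3 and 5.39 CPM of Dnmt1 and 0.634, 2.75 and 1.09 CPM of Pola1.

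Between genotypes at 24 h, 11 of the 44 genes were lower in KO than in WT livers (7.50% of all genes were called lower) and 0 higher, with a median log2 difference of -0.88. Ranges were apart in 5 genes (5.08% of all genes), namely Gins1, Rfc5, Mcm10, Pola1 and Rfc1. Pola2, the regulatory subunit of polymerase alpha, stood at 7.05, 7.87 and 4.28 CPM in WT and 4.43, 2.42, 1.11 and 1.13 CPM in KO livers (log2 -1.51, SE 0.39, adjusted p = 0.00967). Gins1 stood at 2.25, 5.84 and 2.29 CPM in WT and 1.93, 0.975, 0.755 and 1.46 CPM in KO livers (log2 -1.44, SE 0.37, adjusted p = 0.00996), with no overlap. Tk1 stood at 13.3, 21.3 and 6.21 CPM in WT livers (log2 -2.39, SE 0.66, adjusted p = 0.0143), and KO replicate 1 reached the lowest of them. E2f1 stood at 3.51, 17.7 and 2.72 CPM in WT and 5.31, 0.561, 1.11 and 0.460 CPM in KO livers (log2 -2.09, SE 0.67, adjusted p = 0.0299). Rfc5, Prim1, Mcm10, Pole2, Mcm6, Mcm5 and Rfc2 were the others, with log2 differences from -2.51 (Pole2) to -0.81 (Rfc2). Uhrf1 had the lowest difference without passing (log2 -2.69, SE 0.99, adjusted p = 0.0545), and Fen1 the highest (log2 0.66, SE 0.41, adjusted p = 0.248).

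This difference depended on single livers. Without WT 24 h replicate 2 the median was -0.04, against -0.11 over all genes, and 20 of 44 differences were positive. In that refit Pola2 (log2 -1.44, adjusted p = 0.0390) and Mcm10 (-2.62, adjusted p = 0.0414) were still lower in the KO. Fen1 (1.61, adjusted p = 0.0143), Rrm2 (2.17, adjusted p = 0.0374) and Chaf1b (1.69, adjusted p = 0.0409) were then higher, and the log2 difference of Mcm5 turned to 0.30 (adjusted p = 0.831). Without KO 24 h replicate 1 the count rose to 24, all lower in the KO, with a median of -1.22. It was 18 without WT 24 h replicate 3. It was 3 when KO 24 h replicate 2 or 3 was dropped, and 2 when replicate 4 was. With the 24 h livers fitted alone 0 genes passed, and DESeq2 called 15. Among males alone 10 genes were lower and 3 higher in the KO, with a median of -0.505 against -0.075 over all genes. That fit leaves out WT replicate 2 at 24 h and also KO replicates 1 and 4. Only Pola2 passed in all 7 refits.

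The interaction contrast, in which the KO change from sham is set against the WT change, called 1 gene at 24 h (2.96% of all genes were called lower). This was Gins1 (log2 -1.52, SE 0.48, adjusted p = 0.0471), whose call was lost in 13 of 17 refits without 1 library and in 17 of all 24 alternative settings, among them the fit with no sex term. Prim1 (log2 -2.04, SE 0.68, adjusted p = 0.0567) and Mcm10 (log2 -2.59, SE 0.95, adjusted p = 0.0786, the lowest) came next, and Fen1 was highest (log2 1.05, SE 0.53, adjusted p = 0.198). The count was 11 without KO 24 h replicate 1, all lower, 3 without WT 24 h replicate 2, all higher, 2 without WT 24 h replicate 1, 1 without WT sham replicate 3 or KO sham replicate 5, and 0 without any other single library. DESeq2 called 4, and 0 passed without the 6 h sham livers or with these groups alone. The median of the 24 h interaction was -0.59, against -0.05 over all genes, and turned to 0.54 without WT 24 h replicate 2.

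**Figure D5:**
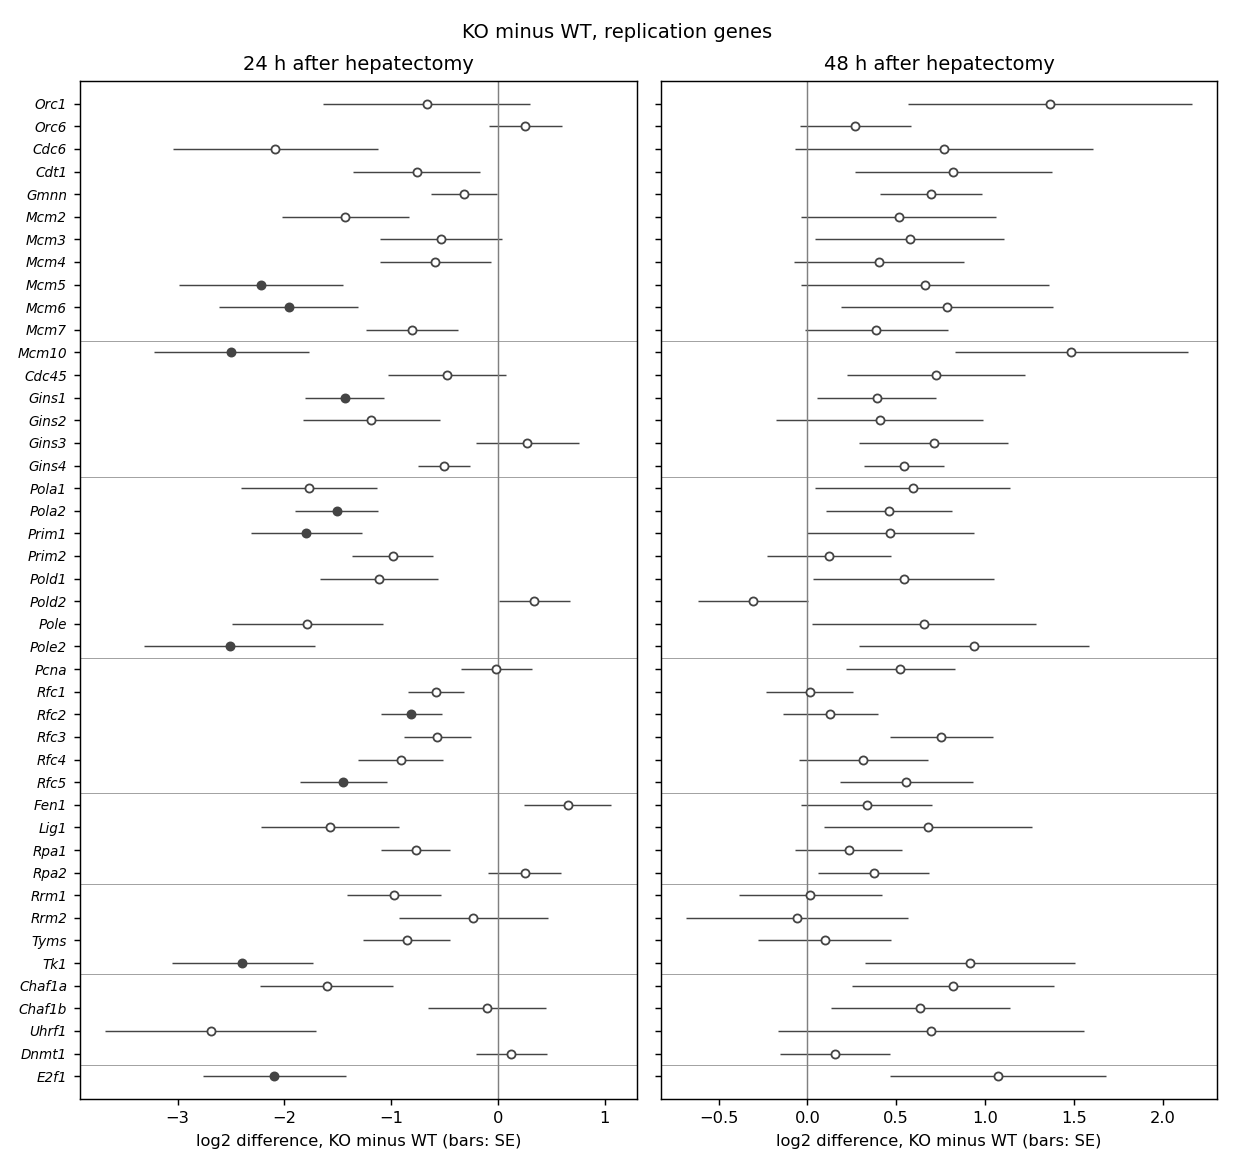
Log2 difference, KO minus WT (horizontal axes, bars SE), of each gene at 24 h (left) and 48 h (right), with filled points for adjusted p below 0.05 and grey lines between roles. At 24 h 38 of 44 points lie below 0 and 11 are filled, and at 48 h 42 of 44 lie above 0 and no point is filled.

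At 48 h the direction between genotypes was the other way, but no gene passed. A higher level in the KO was estimated for 42 of 44 genes, with a median log2 difference of 0.54, 0 passed by edgeR (0.341% of all genes did) and 0 by DESeq2, and 4 had an unadjusted p below 0.05 (11.3% of all genes). The smallest p belonged to Rfc3 (log2 0.75, SE 0.29, adjusted p = 0.292), Gmnn (log2 0.70, SE 0.29, adjusted p = 0.326) and Gins4 (log2 0.54, SE 0.23, adjusted p = 0.336). Mcm10 had the highest difference (log2 1.49, SE 0.65, adjusted p = 0.374) and Pold2 the lowest (log2 -0.31, SE 0.31, adjusted p = 0.765). Ranges were apart in 1 gene, Gins4 (3.45% of all genes). Gins4 stood at 13.3, 11.0, 6.97 and 13.4 CPM in WT and 19.7, 18.1, 15.9 and 13.6 CPM in KO livers. The median was 0.28 without WT 48 h replicate 3, 0.29 without KO 48 h replicate 1, 0.96 without WT 48 h replicate 4 and 0.18 among males alone. The interaction at 48 h called 0 genes by edgeR (0 of all genes) and 0 by DESeq2. An unadjusted p below 0.05 was found for 4 genes (7.70% of all genes). Its median of 0.89 became 0.64 without WT 48 h replicate 3 and 0.29 among males alone. The 3 with the smallest p were Gins4 (log2 0.88, SE 0.30, adjusted p = 0.434), Rfc3 (log2 1.14, SE 0.39, adjusted p = 0.434) and Gmnn (log2 0.97, SE 0.38, adjusted p = 0.529), while Orc1 was highest (log2 1.89, SE 1.24) and Rrm2 lowest (-0.22, SE 0.85). The KO thus had more genes called against sham at 48 h than the WT. In the direct tests between the genotypes no gene passed.

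At 6 h few of the replication genes passed the test against sham livers, but most of their changes were negative. Only 6 of 44 changes were positive in WT livers and 5 of 44 in KO livers. The median over all genes was 0.025 in the WT and -0.003 in the KO. In WT livers 3 genes fell (3.70% of all genes) and 0 rose, with a median log2 change of -0.96, and 13 lay wholly below the sham range (8.93%). In KO livers 2 fell (2.51% of all genes) and 0 rose, with a median of -0.67, and 12 lay wholly below (7.51%). With CPM not scaled by TMM those 13 and 12 became 24 and 19 (19.0% and 15.3% of all genes). Gmnn, called in both, stood at 0.999, 0.884 and 0.731 CPM in WT (log2 -2.10, SE 0.35, adjusted p = 6.84e-04) and 1.26, 1.23 and 2.05 CPM in KO livers (log2 -1.05, SE 0.32, adjusted p = 0.0434). Gmnn levels at 6 h lay below every WT sham liver, whereas in the KO sham replicate 1 (1.77 CPM) fell inside the 6 h range. Tk1 stood at 2.55, 4.91 and 3.08 CPM in WT (log2 -2.57, SE 0.72, adjusted p = 0.0274) and 4.08, 3.59 and 5.30 CPM in KO livers (log2 -1.64, SE 0.67, adjusted p = 0.141). Pole stood at 0.222, 0.309 and 0.122 CPM in WT (log2 -2.78, SE 0.87, adjusted p = 0.0455) and 0.756, 0.419 and 0.350 CPM in KO livers (log2 -1.06, SE 0.76, adjusted p = 0.449). Mcm10 fell in the KO, to 8.23, 9.01 and 18.8 CPM (log2 -2.44, SE 0.74, adjusted p = 0.0409), and Rfc3, next by p, stood at 1.97, 1.23 and 1.50 CPM (log2 -1.004, SE 0.33, adjusted p = 0.0585). Orc1 had 0 counts in all 3 KO libraries at 6 h, which allows up to 0.0898 to 0.150 CPM per library by counting error alone, and no fold is given. The lowest WT change was that of Cdc6 (log2 -2.79, SE 1.39, adjusted p = 0.212), and the highest changes were those of Orc6 in the WT (log2 0.26, SE 0.34) and Chaf1b in the KO (1.14, SE 0.53), neither of which passed.

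The 6 h counts moved with the sham livers used. The WT count was 12 without WT sham replicate 5, the 6 h sham liver, 1 without sham replicate 1 or 6 h replicate 3, and 0 among males alone or with the compared groups alone. DESeq2 called 10 in the WT and 4 in the KO. The KO count fell to 0 without KO sham replicate 2 or 6 h replicates 1 or 2, and to 1 without KO sham replicates 1, 4 or 5 or 6 h replicate 3. Only Gmnn in the WT passed in all 8 refits. The 6 h sham livers had low scores of their own, 1.97 in both genotypes. WT sham replicate 5 had 26 replication genes below every other WT sham liver (30.0% of all genes). KO sham replicate 5 had 24 below every other KO sham liver (22.1%). The WT livers 6 h after hepatectomy had 24, 20 and 28 below every WT sham liver (20.6%, 21.8% and 24.7%). For the KO these were 20, 28 and 22 (21.1%, 21.3% and 22.3%). The part of the 6 h changes shared with sham surgery was not tested, with 1 such liver per genotype. Between genotypes at 6 h 0 genes passed by edgeR (0.116% of all genes did) or DESeq2, and 2 had an unadjusted p below 0.05 (10.6% of all genes), namely Fen1 (log2 -1.28, SE 0.45, adjusted p = 0.281) and Gmnn (log2 0.78, SE 0.36, adjusted p = 0.437). Prim1 came next by p (log2 1.20, SE 0.60, adjusted p = 0.478) and Pola1 highest (log2 1.39, SE 0.72, adjusted p = 0.503). The 6 h interaction called 0 genes by edgeR (0 of all genes) and 0 by DESeq2, with 1 gene, Gmnn, at an unadjusted p below 0.05 (4.59% of all genes).

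At 7 d the WT livers gave 0 genes called by edgeR (0 of all genes) or DESeq2, 0 at an unadjusted p below 0.05 (6.10% of all genes) and a median log2 change of -0.05. Pold2 (log2 -0.47, SE 0.32, adjusted p = 0.910), Rfc4 (log2 0.34, SE 0.38, adjusted p = 0.959) and Prim2 (log2 -0.30, SE 0.38, adjusted p = 0.972) had the smallest p, Pole2 the lowest change (log2 -0.53) and Orc1 the highest (0.45). No gene had every WT 7 d liver above every sham liver (0 of 44, against 2.60% of all genes). KO livers at 7 d also had 0 calls by edgeR (0 of all genes) and DESeq2, but 12 genes had an unadjusted p below 0.05 (3.19% of all genes), 43 of 44 changes were positive and the median was 0.63. In 25 genes all KO 7 d livers exceeded all KO sham livers (3.21% of all genes), including all 11 licensing genes. Mcm5 stood at 7.88, 6.97 and 7.22 CPM in KO livers (log2 1.76, SE 0.73, adjusted p = 1.00) and 3.19, 6.66 and 3.29 CPM in WT livers. Gmnn stood at 5.35, 5.59 and 6.33 CPM in KO livers (log2 0.79, SE 0.29, adjusted p = 1.00) and 4.48, 4.76 and 2.11 CPM in WT livers. Chaf1a, after Gmnn and Mcm5 by p, stood at 4.83, 3.41 and 3.17 CPM (log2 1.39, SE 0.59, adjusted p = 1.00), and Cdc6, with the largest change, at 0.940, 1.15 and 1.26 CPM (log2 1.97, SE 0.94, adjusted p = 1.00). The 3 KO values of each of these genes were close together and above the sham range, yet none passed across all genes. Mcm10 had the lowest KO change (log2 -0.02).

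Between genotypes at 7 d 0 genes passed by edgeR (0.0450% of all genes did) or DESeq2 and 0 had an unadjusted p below 0.05 (1.30% of all genes). In 13 genes the KO values lay wholly above the WT values (6.39% of all genes), among them Mcm4 (log2 0.98, SE 0.57, adjusted p = 1.00), Pole2 (log2 1.41, SE 0.83, adjusted p = 1.00) and Gmnn (log2 0.56, SE 0.33, adjusted p = 1.00), which had the smallest p. Rfc2 had the lowest difference (log2 -0.18). The 7 d interaction called 0 genes by edgeR (0 of all genes) and 0 by DESeq2, with 1 at an unadjusted p below 0.05 (2.23% of all genes), Mcm4 (log2 1.52, SE 0.73, adjusted p = 1.00). In sham livers 0 genes differed between genotypes by edgeR (0.276% of all genes did) or DESeq2, and 0 had an unadjusted p below 0.05 (12.8% of all genes). The median log2 difference was -0.39, and the smallest p belonged to Rpa2 (log2 -0.58, SE 0.29, adjusted p = 0.392), Dnmt1 (log2 -0.55, SE 0.28, adjusted p = 0.408) and Mcm5 (log2 -1.16, SE 0.67, adjusted p = 0.479, the lowest). Pola1 had the highest difference (log2 0.41).

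A second list held 65 further replication genes, such as origin, checkpoint and nucleotide genes, none of them among the 44. At 48 h 29 of 65 rose (2.30% of all genes did) and 0 fell in the KO, with a median log2 change of 1.24. In the WT 23 rose (4.68% of all genes did) and 0 fell, with a median of 0.89. In the KO, Cdk2, the S-phase kinase (log2 1.14), Ticrr, a regulator of origin firing (4.05), and Dscc1, a clamp loader subunit (5.09), tied at an adjusted p of 0.00185. In the WT the smallest p belonged to Dbf4, the activator of the Cdc7 kinase (2.59, adjusted p = 0.00127), Rbl1, a pocket protein (2.26, adjusted p = 0.00387), and Top2a, topoisomerase II alpha (3.34, adjusted p = 0.00555). At 24 h in the KO 9 of 65 rose and 2 fell, no larger shares than the 15.9% and 12.0% of all genes, with the smallest p for E2f4 (1.33, adjusted p = 6.94e-05), Ccne1, which encodes cyclin E1 (2.94, adjusted p = 1.18e-04), and Cdc25a (1.41, adjusted p = 3.69e-04). Between genotypes at 24 h 7 of the 65 were lower in the KO, against 7.50% of all genes. Another 6 were higher, without a share over all genes to set beside them. In the KO 48 h to 24 h contrast 36 rose, against 12.2% of all genes, and 5 fell, also without such a share. At 6 h 4 of 65 fell in the WT (3.70% of all genes did). In the KO 3 fell (2.51% of all genes did) and 1 rose, again without such a share.

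Markers of other liver cells differed in several of the same contrasts. In KO livers at 24 h 6 of 8 macrophage and Kupffer cell markers, 5 of 7 T and NK cell markers tested, 2 of 4 B cell markers and 4 of 6 sinusoidal endothelial markers were lower than in sham, while 1 sinusoidal, 2 of 10 hepatocyte and 1 of 5 cholangiocyte markers were higher. Of all genes 12.0% were lower and 15.9% higher in that contrast. The summed macrophage level was 84.3 to 272.9 CPM at 24 h, the highest in replicate 1, against 221.1 to 347.2 CPM in KO sham livers. Compared with WT livers at 24 h, 3 of 8 macrophage, 5 of 6 sinusoidal and 1 of 6 stellate markers were lower in the KO (7.50% of all genes were), and 3 of 10 hepatocyte and 2 of 5 cholangiocyte markers were higher. At 48 h in the KO 0 of the markers in the 9 lists passed against sham, and the summed macrophage level was 97.4 to 472.7 CPM. In WT livers at 48 h 2 of 10 hepatocyte markers, 1 of 7 T and NK cell markers tested, 1 of 4 B cell markers, 1 of 6 sinusoidal markers and 1 of 4 erythroid markers were lower, and 1 macrophage marker was higher (4.68% of all genes were) and 1 lower. At 6 h in the WT 3 of 5 neutrophil markers tested rose, with summed levels of 28.3 to 67.5 CPM against 2.57 to 11.2 CPM in sham livers, 2 of 4 B cell markers fell (3.70% of all genes did) and 1 of 5 cholangiocyte markers rose. In the KO at 6 h 0 markers of these lists passed by edgeR. In the KO 48 h to 24 h contrast 6 of 8 macrophage, 4 of 6 sinusoidal, 3 of 7 T and NK cell and 2 of 4 B cell markers were higher at 48 h, against 12.2% of all genes. In that contrast 2 of 10 hepatocyte, 1 sinusoidal and 1 of 5 cholangiocyte markers were lower. Marker counts printed without a share over all genes cannot be set against that background here. The part of these cells in the results for the replication genes was not tested. Ncr1, an NK cell marker, had 0 counts in 14 libraries and Ly6g, a neutrophil marker, in 17.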

How the data were processed

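Whole-liver RNA was sequenced in 37 libraries after a stranded mRNA-seq preparation, per the labels' protocols. The deposited table holds whole numbers per gene, taken here as rounded expected counts. STAR 2.5.3a, RSEM 1.3.0 and GRCm38 are named, without roles, per the submitters' processing notes. The annotation release, strand setting and filters are not given in the sources used here. Gene lengths and positions came from GENCODE M21.

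Groups follow the labels. In edgeR 4.0.16 (R 4.3.3), genes were filtered with filterByExpr, scaled by TMM and fitted with group and sex as terms by the robust quasi-likelihood test. P-values were adjusted by Benjamini-Hochberg over 15564 genes, with a threshold of 0.05. Each SE was obtained by dividing the log2 change by the root of its F statistic. DESeq2 1.42.0, other scaling, filter, sex and library choices were alternatives. The fit was tested on simulated data.

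The 44 genes, the other lists and the tests were chosen with earlier results of these data known. Genes were named by rule: a panel of 23, shown by library in sham, 24 h and 48 h livers and elsewhere where a result turned on them, plus the 3 smallest p-values and the extreme changes of each comparison. Rpa2 and others outside the panel were named among all 44.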

Additional observations from a re-analysis of the deposited data

Results flagged for a closer look

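The 23 panel genes and the mean score, in the groups with 4 or 5 livers, gave 120 sets of values, of which 9 held 1 liver far from the others by Dixon's test, which chance does in about 1 set in 20. KO replicate 1 at 24 h accounted for 5. It held 1.51 CPM of Cdc6 (the others 0.0418 to 0.148), 10.6 CPM of Mcm2 (2.13 to 2.76), 11.1 CPM of Mcm5 (1.76 to 2.24) and 2.99 CPM of Uhrf1 (0.0888 to 0.209). Its Pcna, at 14.0 CPM, was below the others (27.8 to 29.8). Among sham livers, WT replicate 5 held 4.44 CPM of Tyms (5.59 to 6.04) and 1.39 CPM of E2f1 (3.01 to 3.85). KO sham replicate 1 held 1.77 CPM of Gmnn (3.37 to 4.12), and KO sham replicate 2 held 1.38 CPM of Rrm2 (6.56 to 10.4). The response of Gins1 at 24 h differed between genotypes by a log2 difference of -1.52, KO minus WT, with an adjusted p of 0.0471 by edgeR, a call that was lost in 13 of 17 refits without 1 library.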

How the results depend on the processing

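Counts are of the 44 genes called. The KO rise at 48 h was within 1.5 times its count under every alternative run, against sham and against 24 h, with leave-one-out counts of 27 to 34 and 30 to 38. Leave-one-out counts ran from 1 to 12 for WT 6 h, 0 to 1 for WT 24 h, 4 to 28 for WT 48 h, 0 to 2 for KO 6 h and 4 to 14 for KO 24 h. They ran from 0 to 5 for WT 48 h against 24 h, 2 to 24 for KO against WT at 24 h and 0 to 11 for the 24 h interaction, and were 0 elsewhere. With no count filter the counts were 17 (WT 6 h), 11 (WT 24 h), 8 (KO 6 h), 5 (KO 7 d), 2 (WT 48 h against 24 h), 23 (KO against WT at 24 h), 1 (at 48 h and in sham), 8 (24 h interaction) and 4 (48 h interaction). DESeq2 gave 10 (WT 6 h), 4 (KO 6 h) and 4 (24 h interaction), RLE scaling 5 (WT 6 h), and no sex term 9 (WT 6 h) and 1 (KO 6 h). Males alone gave 11 (KO 24 h, 2 higher and 9 lower), 0 (WT 6 h), 1 (KO 6 h), 17 (WT 48 h against 24 h) and 4 (24 h interaction). The compared groups alone gave 0 (WT 6 h, WT 48 h, KO against WT at 24 h, 24 h interaction) and 5 (KO 24 h). Without the 6 h sham livers the counts were 12 (WT 6 h), 10 (WT 48 h) and 0 (24 h interaction). The KO against WT difference of Mcm5 at 24 h ran from -3.38 without KO 24 h replicate 1 to 0.30 without WT 24 h replicate 2, where its sign turned. Fewer libraries enter the male and group-alone fits, and otherwise the cause was not tested. No paired analysis was possible because the labels give no replicate numbers. The replicate numbers used here follow the order of the deposited samples within each group. Orc1, with 0 counts in some libraries, is limited by depth.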
